A study of Mus musculus with 2 samples.

Results

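The 200 spots with the most skeletal muscle RNA were compared with muscle-poor spots in 1 RNA library and 1 chromatin accessibility library of E18.5 brain tissue. The muscle-rich spots were chosen by a score, the summed unique molecular identifiers (UMIs, each standing for 1 captured RNA molecule) of Acta1, Ttn, Tnnt3, Tnnc2, Myl1, Myh3, Myh8, Car3 and Cox8b as a percentage of all gene UMIs of the spot. They are 200 of 1993 spots in the count matrix, and the comparison group is the 996 spots with the lowest scores, called muscle-poor below. The 797 spots between the groups entered neither.

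Both libraries came from SPARC-seq of C57BL/6 mouse tissue with the genotype Ctcf homozygous mutation, in which CRISPR/Cas9 editing had placed the R567W change in Ctcf, the gene of a zinc finger protein that organises chromatin loops. All spots carry this allele, so nothing below compares it with wild type. The labels do not state how many embryos were used, and all 1993 barcodes of the matrix also occur in the fragment file of the accessibility library. Each barcode joins 2 segments of 8 bases drawn from 50 sequences, so the barcodes are taken as places on a grid, called spots, that can each hold several cells. This reading of the barcodes is an inference, and spots of 1 library are not replicates.

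Skeletal muscle fibres contract through the sarcomere, in which thick filaments of myosin slide along thin filaments of actin, tropomyosin and troponin that are anchored at the Z-disc. Calcium released from the sarcoplasmic reticulum moves tropomyosin off actin and so permits contraction. Muscle genes are switched on during myogenesis by the MyoD family of basic helix-loop-helix factors, which bind E-boxes, and by MEF2 proteins. The embryonic and perinatal myosins, Myh3 and Myh8, are the heavy chains of fibres before birth. The tissue was labelled as brain, and both pan-neuronal genes and all 9 score genes were found in it as RNA.

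Sequences of 5 accessible regions and 5 promoters are printed first, as examples of the places where chromatin differed between the groups. E-boxes (CANNTG, which reads the same on both strands) are in capitals. The accessible regions are the central 300 bases of peaks on the plus strand of GRCm38. The first 3 lie at muscle genes and had 4.72 to 6.05 times the share of cut-site counts in muscle-rich spots, the Eln peak had the highest ratio of all peaks with at least 100 counts, and the peak on chromosome 1 had no count in the 200 muscle-rich spots.
Ryr1 peak, chr7:29123900-29124199, within the gene body 1.1 kb downstream of the start: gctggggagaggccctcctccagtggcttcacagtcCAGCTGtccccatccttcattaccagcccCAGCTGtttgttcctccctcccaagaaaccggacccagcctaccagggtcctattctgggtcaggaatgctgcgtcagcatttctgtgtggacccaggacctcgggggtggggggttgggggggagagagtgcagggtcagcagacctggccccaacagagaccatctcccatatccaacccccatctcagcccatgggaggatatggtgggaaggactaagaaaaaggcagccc
Myoz1 peak, chr14:20651692-20651991, within the gene body 4.7 kb downstream of the start: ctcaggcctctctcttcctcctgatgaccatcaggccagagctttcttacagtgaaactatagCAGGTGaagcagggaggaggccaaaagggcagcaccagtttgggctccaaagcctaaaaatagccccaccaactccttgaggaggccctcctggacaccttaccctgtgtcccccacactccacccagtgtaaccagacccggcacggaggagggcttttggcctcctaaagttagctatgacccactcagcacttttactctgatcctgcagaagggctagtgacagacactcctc
Tnnt3 peak, chr7:142493461-142493760, 5.23 kb upstream of the start and inside the neighbouring genes Lsp1 and Prr33: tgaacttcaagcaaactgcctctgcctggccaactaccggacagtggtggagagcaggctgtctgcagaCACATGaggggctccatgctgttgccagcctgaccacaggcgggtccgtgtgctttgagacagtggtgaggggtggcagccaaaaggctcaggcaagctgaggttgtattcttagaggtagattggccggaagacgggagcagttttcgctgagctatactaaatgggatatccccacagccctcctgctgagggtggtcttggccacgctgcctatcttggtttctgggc
Eln peak, chr5:134772513-134772812, 25.3 kb upstream of the start, inside the predicted gene Gm30003: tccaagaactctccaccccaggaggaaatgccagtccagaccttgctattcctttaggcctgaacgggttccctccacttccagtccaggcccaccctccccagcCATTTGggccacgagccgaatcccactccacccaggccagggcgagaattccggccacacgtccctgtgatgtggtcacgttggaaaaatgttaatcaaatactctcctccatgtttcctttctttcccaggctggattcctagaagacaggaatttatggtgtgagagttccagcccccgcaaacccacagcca
Chromosome 1 peak, chr1:85917126-85917425, 11.2 kb upstream of the predicted gene 4933407L21Rik, overlapping no gene: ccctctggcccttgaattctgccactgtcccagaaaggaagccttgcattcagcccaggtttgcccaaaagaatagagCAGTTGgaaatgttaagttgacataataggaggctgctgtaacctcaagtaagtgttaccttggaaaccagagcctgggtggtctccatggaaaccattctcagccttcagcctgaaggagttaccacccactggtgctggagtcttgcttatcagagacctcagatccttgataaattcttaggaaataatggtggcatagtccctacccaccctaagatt

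The promoters are the 250 bases before the transcription start in RefSeq (GRCm38.p6), 5′ to 3′ on the strand of the gene. Of the 308 genes on the lists used here, 210 had a promoter sequence in that set. The promoters of Myh8, Synpo2l and Tnnc1 stand for muscle genes with more fragments in muscle-rich spots, that of Mxra8 for connective tissue, and that of Elavl3 for neurons.
Myh8 promoter, chr11:67276874-67277123, plus strand: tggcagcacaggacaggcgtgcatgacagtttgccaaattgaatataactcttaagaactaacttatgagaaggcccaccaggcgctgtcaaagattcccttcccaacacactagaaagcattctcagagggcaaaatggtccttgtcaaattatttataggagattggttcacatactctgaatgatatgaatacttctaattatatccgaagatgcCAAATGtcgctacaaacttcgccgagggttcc
Synpo2l promoter, chr14:20668355-20668604, minus strand: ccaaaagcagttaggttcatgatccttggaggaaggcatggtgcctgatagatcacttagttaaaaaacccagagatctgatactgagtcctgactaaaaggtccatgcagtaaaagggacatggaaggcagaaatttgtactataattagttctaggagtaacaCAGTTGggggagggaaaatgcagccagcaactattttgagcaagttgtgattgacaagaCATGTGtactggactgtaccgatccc
Tnnc1 promoter, chr14:31208062-31208311, plus strand: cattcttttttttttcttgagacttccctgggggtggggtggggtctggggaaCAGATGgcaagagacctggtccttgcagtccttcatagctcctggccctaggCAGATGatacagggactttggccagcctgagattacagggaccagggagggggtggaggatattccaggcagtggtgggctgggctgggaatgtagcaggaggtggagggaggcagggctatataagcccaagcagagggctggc
Mxra8 promoter, chr4:155839430-155839679, plus strand: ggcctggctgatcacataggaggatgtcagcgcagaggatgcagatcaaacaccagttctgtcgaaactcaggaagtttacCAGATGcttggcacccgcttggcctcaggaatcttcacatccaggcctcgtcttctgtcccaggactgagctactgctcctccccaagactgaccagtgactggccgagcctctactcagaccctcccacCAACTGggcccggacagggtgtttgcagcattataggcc
Elavl3 promoter, chr9:22052024-22052273, minus strand: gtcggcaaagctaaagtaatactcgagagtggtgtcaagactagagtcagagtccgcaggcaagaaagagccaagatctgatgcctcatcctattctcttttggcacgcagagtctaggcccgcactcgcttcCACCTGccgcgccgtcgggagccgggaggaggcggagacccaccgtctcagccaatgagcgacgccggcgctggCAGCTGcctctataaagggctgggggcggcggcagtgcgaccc
The last 3 of these windows also overlap the annotated genes Nisch, Mxra8os and Gm49318 in that order, and none of the 10 overlaps a UTR.

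E-boxes are too common to set these windows apart. Any E-box occurred in 82.4% of the tested peaks that lie over 1 kb from a start and in 66.2% of the 250-base windows of all 32851 RefSeq promoters. The CAGCTG form occurred in 27.1% of those peaks and in 13% of the promoter windows, and both E-boxes of the Ryr1 peak have it. The MEF2 consensus, found in 0.748% of those peaks and 0.508% of promoter windows on either strand, was present in the Myoz1 peak and in the Synpo2l promoter.

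The score itself ran from 0.0422% to 3.6% of the UMIs of a spot. Its median was 1.1% in muscle-rich spots and 0.271% in muscle-poor spots. The last of the 200 members had 39 score UMIs of 4958 (0.787%), and the next spot, just outside, had 36 of 4602 (0.782%). The highest muscle-poor spot stood at 0.346%, and no spot of the matrix lacked a score UMI, so the score ranks a continuum and muscle-poor means less muscle RNA, not none. Score genes were left out of every RNA result that follows except where they are named.

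Muscle-rich spots exceeded muscle-poor spots more in chromatin fragments than in UMIs. They had 1174 to 15365 gene UMIs with a median of 4709, against a median of 4148.5 in muscle-poor spots. The median number of fragments was 37248 against 20734, and 54.4% against 44.6% of pooled fragments were shorter than the DNA wrapped around 1 nucleosome. Ratios below are therefore ratios of shares of the group's own total, and their 95% intervals (conditional binomial, Clopper-Pearson) cover counting error only. Peak counts are cut sites, and 1 fragment can give 2 of them. Intervals of peak ratios treat these as independent and are therefore too narrow. With 1 library of each assay no test between groups was possible, and a feature past 2-fold is counted as higher or lower by size alone.

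The muscle-rich spots were also not scattered over the grid. Spots that share the second barcode segment are called a strip here, and the strips are numbered by how many muscle-rich spots they hold. Strips 1 to 6 held 186 of the 200 muscle-rich spots (93%) among 280 spots, and only 1 muscle-poor spot. By the other segment the muscle-rich spots were spread over 49 of 50 values, with at most 7 in each. Being muscle-rich and lying in these strips therefore cannot be told apart in the main comparison. Ratios of the muscle-rich spots of strips 1 to 6 over the other spots of those strips, called within-strip ratios, are given beside the main list results. They pool the 6 strips and do not hold the single strip fixed. Muscle-rich spots were 42 of 47 spots in strip 1 but 21 of 49 in strip 6.

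Sarcomere genes outside the score were higher in muscle-rich spots. Since the spots were chosen on muscle RNA of this same library, these values describe them and are no independent evidence of it. Their 47 genes took 1.14% of UMIs in muscle-rich spots and 0.307% in muscle-poor spots, a ratio of 3.72 (95% interval 3.63 to 3.82). The 45 that had at least 20 UMIs over both groups were all at least 2-fold higher, and the other 2 were not compared, where 6.6% of all 14213 genes tested were at least 2-fold higher and 3.79% at least 2-fold lower. Of the 45, Lmod3 and Myh2 reached the minimum only because they were high in muscle-rich spots. The median gene of the list was at 3.77 and the median of all genes at 0.987. The within-strip ratio was 1.75 (1.68 to 1.81). Per spot, the share of the list was lowest at 0.261%, had a median of 0.958% and was highest at 3.12% in muscle-rich spots, against 0.0621%, 0.299% and 0.949% in muscle-poor spots. The groups overlapped, with 105 of 200 muscle-rich spots above every muscle-poor spot and all but 2 above the muscle-poor median. Of a gene with more RNA in a spot, more muscle in the spot and more RNA per muscle cell cannot be told apart.

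Thick filament and M-band genes had a ratio of 3.71 (3.55 to 3.88), with 14 of 14 tested genes at least 2-fold higher. Mylpf, the phosphorylatable light chain of fast fibres, had 0, 11 and 49 UMIs in the lowest, median and highest muscle-rich spot, and 0, 3 and 12 in muscle-poor spots. It stood 3.73-fold higher (3.54 to 3.94). The slow fibre myosin Myh7 was at 3.95 (2.96 to 5.26), from 95 against 104 UMIs, and the slow light chain Myl3 at 5.6 (3.29 to 9.62), from 35 against 27. Heavy chains of adult fast fibres were rare, with 28, 13 and 8 UMIs of Myh1, Myh2 and Myh4 in all muscle-rich spots together. Mybpc1, the slow myosin-binding protein C, was at 3.88 (3.32 to 4.53), and Myom2 and Myom1, which cross-link myosin at the M-band, at 4.48 (3.41 to 5.89) and 3.72 (2.69 to 5.13).

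Thin filament genes had a ratio of 3.72 (3.58 to 3.86), and 12 of 12 were at least 2-fold higher. Tnni2, troponin I of fast fibres, had 0, 6 and 31 UMIs per muscle-rich spot (lowest, median, highest) and 0, 1 and 9 per muscle-poor spot. It was 3.97-fold higher (3.69 to 4.27). Tpm2, beta-tropomyosin, had a median of 5 UMIs against 1, at 3.7 (3.42 to 4.01). Actc1, the actin of heart and of fetal skeletal muscle, was at 3.77 (3.29 to 4.32). The slow fibre troponins Tnnt1, Tnni1 and Tnnc1 were at 3.6 (3.01 to 4.3), 4.35 (3.46 to 5.46) and 4.28 (3.28 to 5.59), and these intervals overlap those of the fast fibre genes.

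Z-disc genes and genes of sarcomere assembly had a ratio of 3.74 (3.54 to 3.95), with 19 of 19 tested at least 2-fold higher. Des, the muscle intermediate filament desmin, was at 3.98 (3.61 to 4.39) from 801 against 869 UMIs. Actn2, the alpha-actinin that cross-links thin filaments, was at 4.33 (3.76 to 4.99), while Actn3, its fast fibre form, was at 2.72 (2.04 to 3.62). Klhl41, which stabilises nebulin, was at 5.28 (3.32 to 8.44), among the 10 highest of all genes with at least 50 UMIs. It reached that minimum only because it was high in muscle-rich spots. Within-strip ratios of the thick filament, thin filament and Z-disc lists were 1.73 (1.62 to 1.84), 1.75 (1.65 to 1.85) and 1.77 (1.63 to 1.93). The spread among the 45 tested sarcomere genes ran from Xirp1 at 2.16 to Lmod3 at 5.62, with the middle of the list between 3.26 and 4.32.

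Genes of excitation-contraction coupling had a ratio of 2.95 (2.78 to 3.14), within strips 1.65 (1.5 to 1.82), and 10 of 15 were at least 2-fold higher. Atp2a1, the calcium pump of fast fibres, was at 3.92 (3.35 to 4.58), the calcium buffers Casq1 and Casq2 at 3.67 (2.75 to 4.9) and 3.71 (3.02 to 4.56), and sarcolipin (Sln), an inhibitor of the pump, at 3.23 (2.79 to 3.75). The release channel Ryr1, which is also used in brain, was at 1.89 (1.57 to 2.28). Cacnb1 was at 1.37 (1.1 to 1.71) and Stac3, at 9 against 38 UMIs, at 1.02 (0.435 to 2.15).

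Genes of muscle energy metabolism had a ratio of 2.6 (2.51 to 2.69), within strips 1.6 (1.51 to 1.68), and 11 of 15 tested were at least 2-fold higher. Among the higher were Ckm, muscle creatine kinase, at 3.57 (3.31 to 3.86), Eno3 at 3.62 (3.32 to 3.94) and Pgam2 at 3.9 (3.48 to 4.37). The respiratory chain subunit Cox6a2 was at 3.88 (3.33 to 4.52), and myoglobin (Mb) at 6.34 (3.14 to 13.1) from 22 against 15 UMIs. Mb reached the minimum of 20 UMIs only because it was high in muscle-rich spots. Pygm, Ckmt2 and Phkg1 were lower, at 2.7 (2.14 to 3.4), 2.45 (1.44 to 4.1) and 2.06 (0.865 to 4.56). Ckm had a median of 5 UMIs per muscle-rich spot and 1 per muscle-poor spot, with highest values of 20 and 7. The glycolytic genes Aldoa, Ldha and Pfkm were nearer to 1, at 1.8 (1.66 to 1.94), 1.64 (1.42 to 1.88) and 1.22 (0.937 to 1.56). The fatty acid carrier Fabp3 was at 0.911 (0.775 to 1.07).

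Lists of the fibre surface had smaller ratios. Neuromuscular junction genes were at 1.41 (1.18 to 1.69), within strips 1.12 (0.849 to 1.49), with 4 of 7 tested at least 2-fold higher. The fetal acetylcholine receptor subunit Chrng was at 4.88 (2.68 to 8.96) from 26 against 23 UMIs, and Ache, acetylcholinesterase, which neurons also make, was at 0.799 (0.576 to 1.09). The adult subunit Chrne had 0 and 5 UMIs. Genes of the dystrophin complex and sarcolemma were at 1.34 (1.26 to 1.43), within strips 1.26 (1.14 to 1.4), with 5 of 11 at least 2-fold higher. Caveolin 3 (Cav3) was at 3.23 (2.43 to 4.29) and the membrane repair gene Dysf at 2.69 (1.82 to 3.93), whereas Dmd itself was at 1.39 (1.25 to 1.54).

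Transcription factors of the lineage were sparse. Myogenic regulators as a list were at 1.45 (1.34 to 1.58), with 5 of 8 tested at least 2-fold higher, and the within-strip ratio was 1.1 (0.972 to 1.25). Myod1 and Myog, the factors of commitment and of differentiation, had 14 and 16 UMIs in all muscle-rich spots against 6 and 20, giving 10.1 (3.64 to 32) and 3.46 (1.67 to 7.02). Myod1 reached the minimum of 20 UMIs only because it was high in muscle-rich spots. Over the other spots of strips 1 to 6 Myog was at 0.885, on the other side of 1. Eya4 and Eya1, transcriptional coactivators that act upstream of the MyoD family, were at 3.11 (2.26 to 4.25) and 2.49 (1.66 to 3.72). Myf5 and Myf6 had 1 and 0 UMIs. Mef2c, which neurons use too, was at 1.41 (1.26 to 1.58) and Mef2a at 0.923 (0.742 to 1.14). Genes for satellite cells and fusion were at 1.65 (1.38 to 1.96), within strips 1.06 (0.82 to 1.37). Of these, 2 of 7 tested were at least 2-fold higher, the muscle cadherin Cdh15 at 3.1 (1.84 to 5.17) and the fusion gene Mymk at 3.18 (1.82 to 5.48), while Pax7 was at 1.23 (0.717 to 2.01) and Pax3 at 0.565 (0.299 to 0.99). Tbx1, a regulator of head muscle, was at 3.48 (1.97 to 6.1) from 25 against 31 UMIs.

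RNA of fibroblasts, fat, epithelium, bone and tendon was also higher in muscle-rich than in muscle-poor spots. Of these 5 lists only that of fat was higher than in the other spots of strips 1 to 6. The score that chose the spots holds Car3 and Cox8b, which brown fat also uses, so the result for fat is not independent of that choice. Fibroblast genes took 0.345% against 0.119% of UMIs, a ratio of 2.89 (2.77 to 3.02), and 8 of 13 were at least 2-fold higher. The within-strip ratio was 0.864 (0.818 to 0.912), on the other side of 1. Col1a1, the main chain of fibrillar collagen, had 0, 8 and 48 UMIs in the lowest, median and highest muscle-rich spot and 0, 2 and 51 in muscle-poor spots, so the single highest spot was a muscle-poor one. Its ratio was 3.19 (3.01 to 3.39), and Col1a2, Col3a1 and Col6a3 were at 2.81, 2.31 and 2.93. Adipose genes had the highest ratio of the lists outside the score, 5.67 (4.63 to 6.95), on 227 UMIs, with 4 of 4 tested at least 2-fold higher. Car3, a carbonic anhydrase, and Cox8b, a respiratory subunit, serve brown fat as well as muscle and took part in the choice of spots. With both left out of the score the adipose ratio was 4.28 (3.47 to 5.28). With the full score the within-strip ratio was 1.78 (1.36 to 2.35), and it was not computed without Car3 and Cox8b. Fabp4, the fatty acid carrier of adipocytes, was the highest gene of all with at least 50 UMIs (6.98, 4.61 to 10.7), yet 157 of 200 muscle-rich spots had none of it. It reached that minimum only because it was high in muscle-rich spots. Genes of secretory and ciliated epithelium were at 3.35 (3 to 3.75), with 7 of 7 at least 2-fold higher, bone and cartilage genes at 2.3 (1.97 to 2.68) and tendon genes at 2.24 (1.73 to 2.89). Their within-strip ratios were 0.435 (0.389 to 0.486), 0.831 (0.683 to 1.01) and 1 (0.703 to 1.43). Endothelial genes were at 1.11 (0.986 to 1.25), within strips 1.12 (0.932 to 1.35), and no gene of the heart list reached 20 UMIs, the whole list having 17 against 63.

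Neuronal and glial RNA was lower in share. Pan-neuronal genes took 0.418% of UMIs in muscle-rich spots and 0.618% in muscle-poor spots, a ratio of 0.677 (0.655 to 0.699), although 0 of 12 passed 2-fold. The within-strip ratio was 0.992 (0.942 to 1.04). Per spot the share was 0.0646%, 0.409% and 1.13% in muscle-rich spots (lowest, median, highest) and 0.13%, 0.618% and 1.12% in muscle-poor spots, and 12 muscle-rich spots lay above the muscle-poor median. Stmn2, a tubulin-binding protein of growing axons, had a median of 1 UMI against 3, at 0.548 (0.489 to 0.612), and Gap43, a growth cone protein, was at 0.542 (0.484 to 0.605), and these were the 2 lowest of the 12. Over the other spots of strips 1 to 6 Stmn2 was at 0.968 (0.813 to 1.16). The highest of the 12 was Snap25, a protein of synaptic vesicle fusion, at 1.03 (0.845 to 1.26). Radial glia genes were at 0.757 (0.697 to 0.821), and within strips at 0.996 (0.876 to 1.13).

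**Figure D1:**
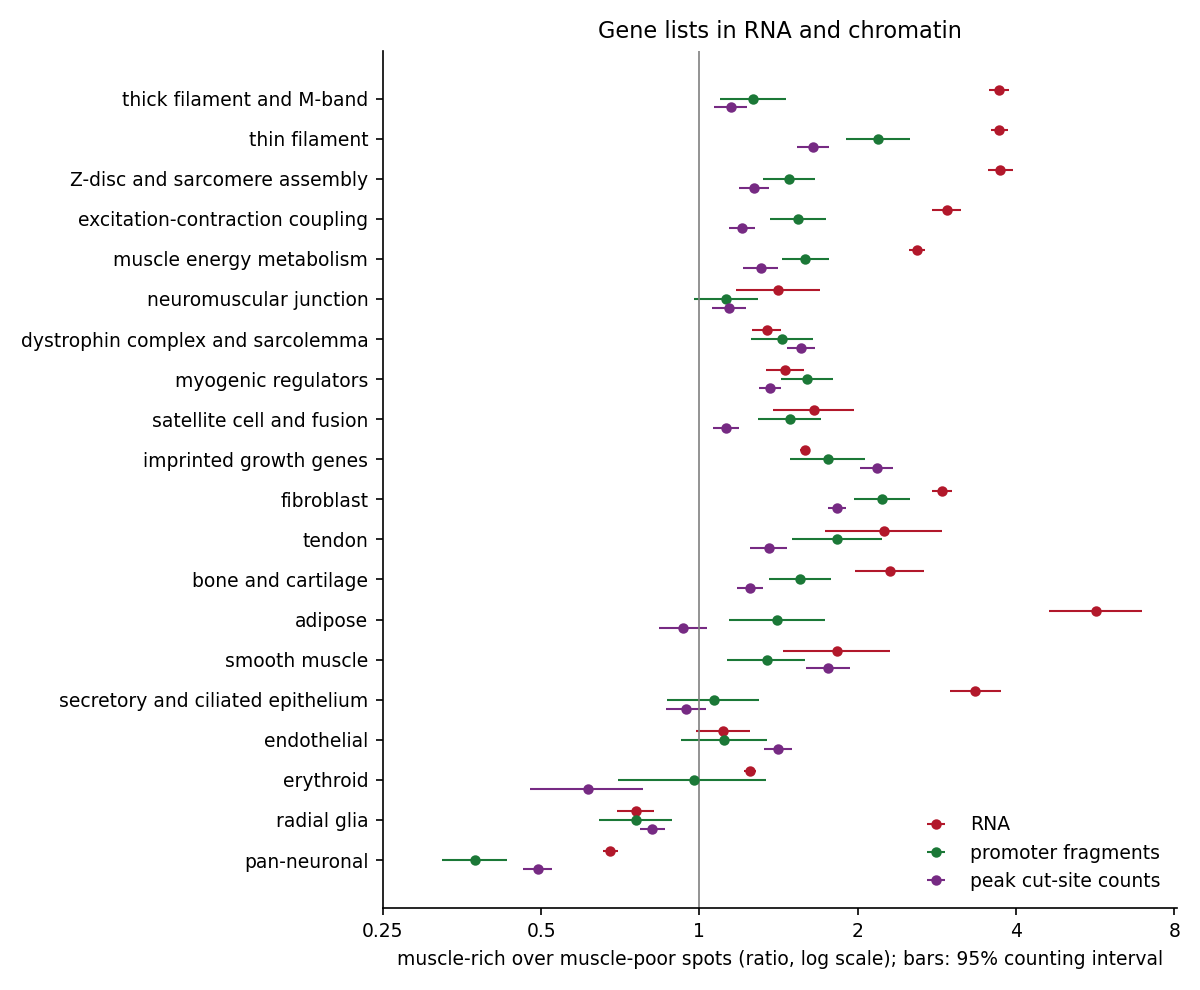
Ratio of muscle-rich over muscle-poor spots for 20 gene lists (log scale), for RNA (share of gene UMIs outside the score), promoter fragments and peak cut-site counts; bars are 95% counting intervals. Sarcomere lists stand near 3.7 in RNA and between 1.15 and 2.18 in chromatin, and pan-neuronal genes are lower in chromatin (0.374 and 0.493) than in RNA (0.677).

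Of the 10 genes with the highest RNA ratios among those with at least 50 UMIs, Myl3 and Klhl41 are on a muscle list and Fabp4 and Cidea on the adipose list. After Fabp4 came Sypl2, a synaptophysin-like protein of the triad membrane of muscle (6.77, 4.58 to 10.1), Slc36a2, an amino acid transporter (6.2), and Hspb2, a small heat shock protein of muscle (6.17, 3.71 to 10.4). Tceal7, Cidea (a lipid droplet protein of brown fat), Myl3, Gpd1 (glycerol-3-phosphate dehydrogenase), Klhl41 and Cyp2f2 (an airway cytochrome) stood between 5.7 and 5.26. At the other end were Bend4 (1 against 57 UMIs, 0.0758, 0.00189 to 0.44), Lamtor3, and Cbln1, a synaptic organiser of the cerebellum (7 against 141 UMIs, 0.214, 0.0847 to 0.454). Of the 10 highest, only Sypl2, Tceal7, Cidea and Gpd1 would have reached 50 UMIs if their share had been equal in both groups. Both ends were picked for their size, and genes with 20 to 49 UMIs, such as Myod1, can lie beyond them. Their ratios are therefore not estimates free of that choice. H19, an imprinted RNA of growing mesoderm, had 2, 17 and 47 UMIs in the lowest, median and highest muscle-rich spot and 0, 5 and 20 in muscle-poor spots, a ratio of 3.16 (3.03 to 3.3), against 1.46 (1.37 to 1.55) over the other spots of strips 1 to 6. Its imprinted neighbour Igf2 was at 2.46 (2.27 to 2.65).

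Chromatin took no part in the choice of the spots. At promoters, counted as fragments that touch the window from 1 kb before to 1 kb after the start, the 9 score genes had 216 fragments in muscle-rich spots and 349 in muscle-poor spots, a ratio of 1.55 (1.3 to 1.84). Tnnc2, fast troponin C, was at 2.01 (1.19 to 3.38), Tnnt3, fast troponin T, at 1.85 (1.2 to 2.84) and Acta1, skeletal actin, at 1.74 (1.13 to 2.67). Myh8, with the promoter printed above, was at 2.69 (1.52 to 4.78) from 28 against 26 fragments. The giant protein gene Ttn, at 5 against 20 fragments, was at 0.625 (0.183 to 1.72), and the intervals of Myl1, Myh3, Car3 and Cox8b also included 1.

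Sarcomere promoters outside the score were at 1.58 (1.47 to 1.7), with 8 of 24 tested at least 2-fold higher and none at least 2-fold lower. The within-strip ratio was 1.33 (1.19 to 1.49). Among all 17630 promoters tested, 4.11% were at least 2-fold higher and 5.67% at least 2-fold lower, and their median was 1. Thin filament promoters were at 2.18 (1.9 to 2.51), within strips 1.32 (1.08 to 1.62). Of 6 tested, 5 were at least 2-fold higher, among them Tpm2 at 3.38 (2.37 to 4.84), Tnni2 at 2.64 (1.79 to 3.9), Tpm1 at 2.6 (1.87 to 3.63), Tnnc1 at 2.5 (1.48 to 4.21) and Actc1 at 2.1 (1.27 to 3.46). Tpm2 ran from 1.47 to 5.16 at its promoter under the alternative settings described below. Z-disc promoters were at 1.48 (1.32 to 1.66), within strips 1.44 (1.2 to 1.74), led by Synpo2l, a partner of alpha-actinin, at 4 (2.37 to 6.88). Thick filament promoters were at 1.27 (1.1 to 1.46), within strips 1.19 (0.954 to 1.49), with 0 of 7 tested past 2-fold, and the slow myosin Myh7, at 3.95 in RNA, was at 0.685 (0.395 to 1.14) at its promoter.

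Promoters of the other muscle lists ranged from 1.12 for the neuromuscular junction to 1.6 for myogenic regulators among those given here. Energy metabolism was at 1.59 (1.43 to 1.76), with Pygm, muscle glycogen phosphorylase, at 2.81 (1.93 to 4.1) and the insulin-responsive glucose transporter Slc2a4 at 2.55 (1.89 to 3.46), although Slc2a4 had only 11 and 20 UMIs. Excitation-contraction coupling was at 1.54 (1.36 to 1.74), with Ryr1 at 2.36 (1.45 to 3.86) and the junctophilins Jph2 and Jph1, which hold the triad together, at 2.43 (1.48 to 3.98) and 2.11 (1.54 to 2.9). Myogenic regulators were at 1.6 (1.43 to 1.79), with Myog at 2.97 (1.81 to 4.91) and Mef2a at 1.71 (1.32 to 2.21), while Myod1 was at 1.46 (0.846 to 2.48). Promoters of satellite cell and fusion genes were at 1.49 (1.29 to 1.71), within strips 0.977 (0.805 to 1.19), with 2 of 9 at least 2-fold higher. The tetraspanin Cd82, of satellite cells among others, was at 2.84 (2.2 to 3.67), while Chodl was at 0.564 (0.342 to 0.893). Neuromuscular junction promoters were at 1.12 (0.976 to 1.29). Within strips the promoter ratios of energy metabolism, excitation-contraction coupling, myogenic regulators and the neuromuscular junction were 1.22 (1.04 to 1.43), 1.3 (1.08 to 1.57), 1.18 (0.998 to 1.39) and 0.943 (0.769 to 1.16).

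None of the 10 promoters with the highest ratios among those with at least 100 fragments belonged to a gene of the muscle lists. Most sarcomere promoters had fewer fragments and could not enter this ranking. Synpo2l, at 4 (2.37 to 6.88) from 40 against 25 fragments, was left out by that minimum. Mxra8, a matrix remodelling protein of fibroblasts, led with 150 against 73 fragments (5.14, 3.86 to 6.89), but was at 1.14 (0.843 to 1.57) over the other spots of strips 1 to 6. Its antisense neighbour Mxra8os shares most of that window. Mxra8 was followed by Dnm3os (4.61), Fcgrt (4.46), Islr (4.35, and 1.24, 0.879 to 1.77, over those spots), Twist1, a factor of mesenchyme (3.91, 2.83 to 5.43, and 1.24, 0.841 to 1.86, over the other spots of those strips), Rflnb (3.69), Cavin1, which shapes caveolae (3.69), Pde8a (3.62) and Tgfbr2, a receptor for TGF-beta (3.61). Of these 10, only the promoters of Mxra8, Mxra8os, Islr and Cavin1 would have reached 100 fragments if their share had been equal in both groups. Fibroblast promoters as a list were at 2.23 (1.97 to 2.52), with 6 of 9 tested at least 2-fold higher, and their within-strip ratio was 0.969 (0.828 to 1.14). Adipose promoters were at 1.41 (1.14 to 1.73), within strips 1.26 (0.916 to 1.77), and adipose peaks at 0.931 (0.839 to 1.03), against 5.67 in RNA, and those of secretory and ciliated epithelium at 1.06 (0.868 to 1.3), against 3.35 in RNA.

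Pan-neuronal promoters were lower in muscle-rich spots by more than pan-neuronal RNA was. Lists of excitatory and inhibitory neurons did not share this, at 1.04 (0.863 to 1.26) and 0.849 (0.717 to 1) at promoters and 0.807 (0.728 to 0.893) and 0.642 (0.555 to 0.739) in RNA. Their within-strip ratios were 0.932 (0.706 to 1.24) and 1.1 (0.84 to 1.45) at promoters and 0.909 (0.778 to 1.06) and 0.986 (0.786 to 1.24) in RNA. Pan-neuronal promoters had 224 against 1498 fragments, a ratio of 0.374 (0.323 to 0.43), and 8 of 11 tested were at least 2-fold lower. The within-strip ratio was 0.814 (0.65 to 1.02). Tubb3, the neuronal beta-tubulin, had 16 against 259 fragments, or 0.154 (0.0869 to 0.256), beside an RNA ratio of 0.613 (0.545 to 0.688), which was 0.945 (0.79 to 1.13) over the other spots of strips 1 to 6. The Tubb3 promoter ratio ran from 0 to 0.386 under the alternative settings described below. Rbfox3, a splicing regulator of mature neurons, was at 0.294 (0.156 to 0.513) at its promoter and 0.949 (0.854 to 1.05) in RNA, and Elavl3, an RNA-binding protein whose promoter is printed above, at 0.454 (0.259 to 0.756) and 0.686 (0.642 to 0.733). The lowest promoter of all was that of Soga3, with 4 against 114 fragments (0.0877, 0.0235 to 0.231). Under the alternative settings its ratio ran from 0 to 0.458. Radial glia promoters were at 0.758 (0.645 to 0.886), within strips 0.982 (0.767 to 1.26).

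Gene by gene, the 2 readouts moved together loosely. Over 12795 genes with both values, the Spearman correlation of RNA and promoter ratios was 0.315, given as a description because genes share libraries and spots. The median promoter ratio was 1.4 among genes with RNA at least 2-fold higher, 0.884 among those at least 2-fold lower and 0.994 over all. Of 721 genes higher in RNA, 148 (20.5%) were also at least 2-fold higher at the promoter, where 3.45% of all 12795 were. These were 33.5% of the 442 genes higher at the promoter, where 5.64% of all were higher in RNA. Hspb2 was among the 148, at 6.17 in RNA and 3.33 (2.23 to 5.02) at the promoter. Of 413 genes lower in RNA, 43 (10.4%) were at least 2-fold lower at the promoter, where 5.2% of all were.

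**Figure D2:**
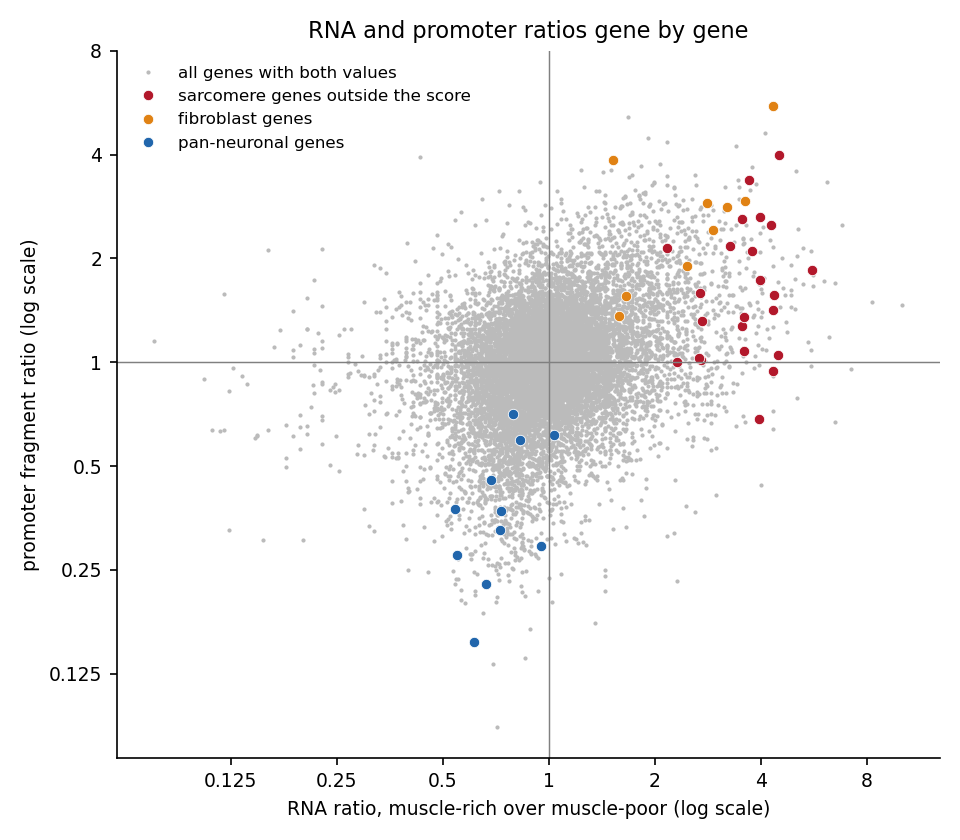
RNA ratio (x, log scale) against promoter fragment ratio (y, log scale), muscle-rich over muscle-poor spots, for genes with at least 20 UMIs and 50 fragments; grey points are all genes with ratios above 0, and coloured points the 3 named lists. Sarcomere genes sit between 2.16 and 5.6 in RNA but spread from 0.685 to 4 at the promoter, the fibroblast genes that reach both minimums lie above 1 in both, and pan-neuronal genes are lower mainly at the promoter.

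Larger shares of peaks than of promoters passed 2-fold, but the minimum was 50 cut-site counts for peaks and 50 fragments for promoters. A fragment can give 2 cut-site counts, and sparse features pass 2-fold more easily by counting error. The shares are therefore not at equal depth. Of 61781 peaks with at least 50 cut-site counts over both groups, 11.5% were at least 2-fold higher in muscle-rich spots and 16.7% at least 2-fold lower. Among 12557 peaks within 1 kb of a start the shares were 6.6% and 6.47%, and among 8872 peaks at 1 to 10 kb 14.1% and 13.7%. Among 27497 peaks at 10 to 100 kb they were 13.8% and 18%, and among 12855 peaks over 100 kb away 9.86% and 26%. Depth was not matched between these classes. Peaks whose nearest start within 100 kb was a sarcomere gene were at 1.34 (1.29 to 1.39) in sum, with 32 of 98 at least 2-fold higher and 10 at least 2-fold lower. Those of thin filament genes were at 1.65 (1.54 to 1.76), with 16 of 32 at least 2-fold higher, those of fibroblast genes at 1.82 (1.75 to 1.9), with 39 of 93, and those of pan-neuronal genes at 0.493 (0.462 to 0.525), with 35 of 56 at least 2-fold lower. Their within-strip ratios were 1.13 (1.07 to 1.2) for sarcomere, 0.969 (0.88 to 1.07) for thin filament, 1.04 (0.988 to 1.1) for fibroblast and 0.879 (0.796 to 0.971) for pan-neuronal genes.

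The peaks with the highest ratios near muscle genes were few in counts and were chosen for their ratios. A peak 75 bp upstream of the start of Trim54, a ubiquitin ligase of the sarcomere, had 37 against 14 counts and was at 6.8 (3.59 to 13.6). The printed Ryr1 peak was at 6.05 (3.51 to 10.8) from 47 against 20 counts, the Myoz1 peak at 5.96 (3.41 to 10.8) from 44 against 19, and the Tnnt3 peak, 5.23 kb upstream of the start, at 4.72 (3.28 to 6.85) from 88 against 48. Myoz1 encodes a Z-disc protein that binds calcineurin. Peaks near Tnnt1, Tnni1 and Tpm2 were at 4.59, 4.44 and 4.29.

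Over all peaks with at least 100 counts, the highest ratio, 14.1 (8.33 to 25.2), was that of the printed peak 25.3 kb upstream of Eln, the elastin gene, with 93 against 17 counts. Peaks nearest to Slc1a3 (9.36), S1pr2 (8.79), Fgfr2 (8.34) and Cdh5 (7.91, from 243 against 79 counts) followed, all more than 10 kb from that start. Of these peaks, only that near Cdh5 would have reached 100 counts if its share had been equal in both groups. The nearest gene is a matter of position only. The printed peak on chromosome 1 had 0 against 153 counts, which with a floor of 3 counts over the group is at least 19.8-fold lower, while the 95% interval of its ratio reached 0.0628. The peak at the Soga3 promoter had 2 against 183 counts, a ratio of 0.0281 (0.00338 to 0.103).

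The sequence of the higher peaks differed in some motifs. Among 6303 peaks over 1 kb from a start that were at least 2-fold higher, 32.6% held CAGCTG in their central 300 bases, against 27.1% of all 49186 tested and 25% of the 9504 that were at least 2-fold lower. CAGATG, another E-box, was at 26.6%, 26.1% and 27.3%. The MEF2 consensus was in 1.51%, 0.748% and 0.705%. Sites named for AP-1 (TGANTCA) were in 15.7%, 10.4% and 8.62%, for RUNX (TGTGGTT) in 11%, 6.97% and 5.8%, and for TEAD (ACATTCC) in 8.22%, 5.06% and 4.08%. The homeodomain core TAATTA ran the other way, at 4.33%, 5.27% and 7.31%, and the CTCF core consensus was in 1.02%, 2.9% and 2.42%. Motifs were searched on both strands. CAGCTG and CAGATG are forms of CANNTG, a MEF2 match can contain TAATTA, and a match is no evidence that a factor was bound. The median GC content was 52.7%, 51.3% and 50%.

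**Figure D3:**
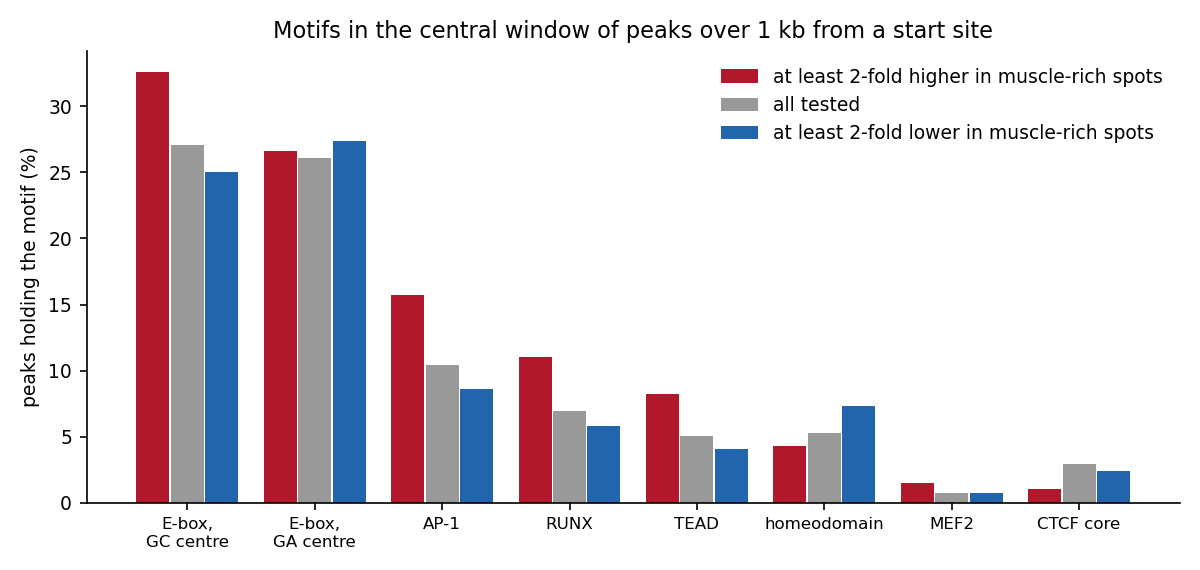
Percentage of peaks over 1 kb from a start that hold each motif in their central 300 bases, for peaks at least 2-fold higher in muscle-rich spots (6303), all tested (49186) and at least 2-fold lower (9504). CAGCTG E-boxes, AP-1, RUNX, TEAD and MEF2 are more frequent in the higher peaks, and homeodomain and CTCF core matches less so.

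Within strips 1 to 6, the 186 muscle-rich spots were set against 94 other spots, whose median score was 0.637%. The median number of fragments was 38868 in the muscle-rich and 36055 in the other spots, and that of UMIs 4738.5 and 5501.5. Sarcomere genes outside the score took 1.16% against 0.664% of UMIs, and their promoters had 10.8 against 8.14 fragments per 10000. Their ratios, 1.75 and 1.33, were smaller than in the main comparison. Score gene promoters were at 1.79 (1.33 to 2.45), where the main comparison gave 1.55, with overlapping intervals. Promoters of secretory and ciliated epithelium were at 0.66 (0.507 to 0.862).

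In fibroblast and pan-neuronal RNA the muscle-rich spots thus lay near the other spots of their strips, and both lay apart from the spots elsewhere in pooled share, though single spots overlapped widely. The other 94 spots had 0.398% fibroblast and 0.418% pan-neuronal RNA, where the 1699 other spots outside the strips had 0.132% and 0.614%. The 14 muscle-rich spots outside the strips, with a median of 1738 UMIs, had 0.584% sarcomere, 0.379% fibroblast and 0.533% pan-neuronal RNA.

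**Figure D4:**
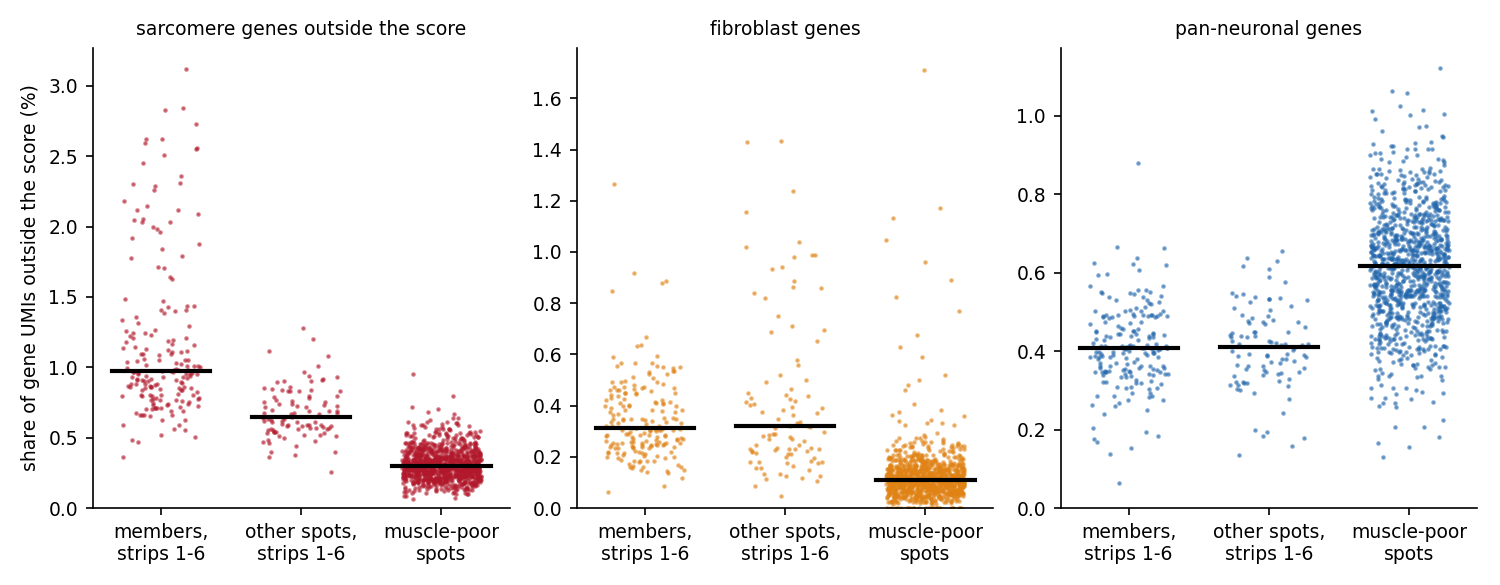
Share of gene UMIs outside the score (%) per spot for sarcomere, fibroblast and pan-neuronal genes in the 186 muscle-rich spots of strips 1 to 6, the 94 other spots of those strips and the 995 muscle-poor spots elsewhere; each dot is a spot and each line a median. The sarcomere medians are 0.976%, 0.647% and 0.299%, while the first 2 groups share their fibroblast (0.311% and 0.319%) and pan-neuronal (0.408% and 0.411%) medians.

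The strips also differed among themselves. Strip 6 had the most fibroblast RNA, 0.583% over all its spots, and strip 5 the least, 0.261%, while epithelial RNA was highest in strip 5 at 0.234% and lowest in strip 4 at 0.0316%. Adipose RNA ran from 0.00862% in strip 6 to 0.0396% in strip 4. Wfdc2, a secreted protein of airway epithelium, had 54 of its 129 UMIs in the muscle-rich spots of strip 5, and Ibsp, bone sialoprotein, 33 of 67 in those of strip 1. Sarcomere RNA, which follows the choice of spots, was between 0.868% and 1.17% in strips 1 to 6. Fibroblast and adipose RNA was higher in each of the 6 strips than in the spots elsewhere, by different amounts. The within-strip ratios pool the 6 strips and do not separate these differences from muscle RNA.

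Among the 200 muscle-rich spots, chromatin followed RNA at the top of the score. In the 50 highest spots sarcomere genes took 1.94% of UMIs and their promoters 15 fragments per 10000, and their peaks 17.3 counts per 10000. In the next 50 the values were 1.05%, 9.88 and 13, then 0.873%, 9.82 and 11.9, and in the last 50 0.754%, 9.13 and 12. Fibroblast promoters were at 4.7, 4.32, 5 and 4.51 and pan-neuronal promoters at 1.97, 2.09, 2.17 and 2.08 in the same order, with no such step. The 50 highest all lay in strips 1 to 6, and 42 of the last 50 did.

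Across all 1993 spots in 10 bins by score, most of the change lay in the top bins. Sarcomere RNA was 1.14% in the first bin, which is the muscle-rich group, 0.556% in the second and 0.406% in the third, and lay between 0.285% and 0.318% in bins 6 to 10. Pan-neuronal promoters were at 2.08, 3.02 and 5.06 fragments per 10000 in the first 3 bins and lay between 5.19 and 6.34 in bins 4 to 10. Fibroblast promoters were at 4.63 and 4.5 in the first 2 bins and at most 2.66 after. The lowest bin still had 0.285% sarcomere RNA, and whether it came from muscle in those spots or from RNA spread between spots was not tested.

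**Figure D5:**
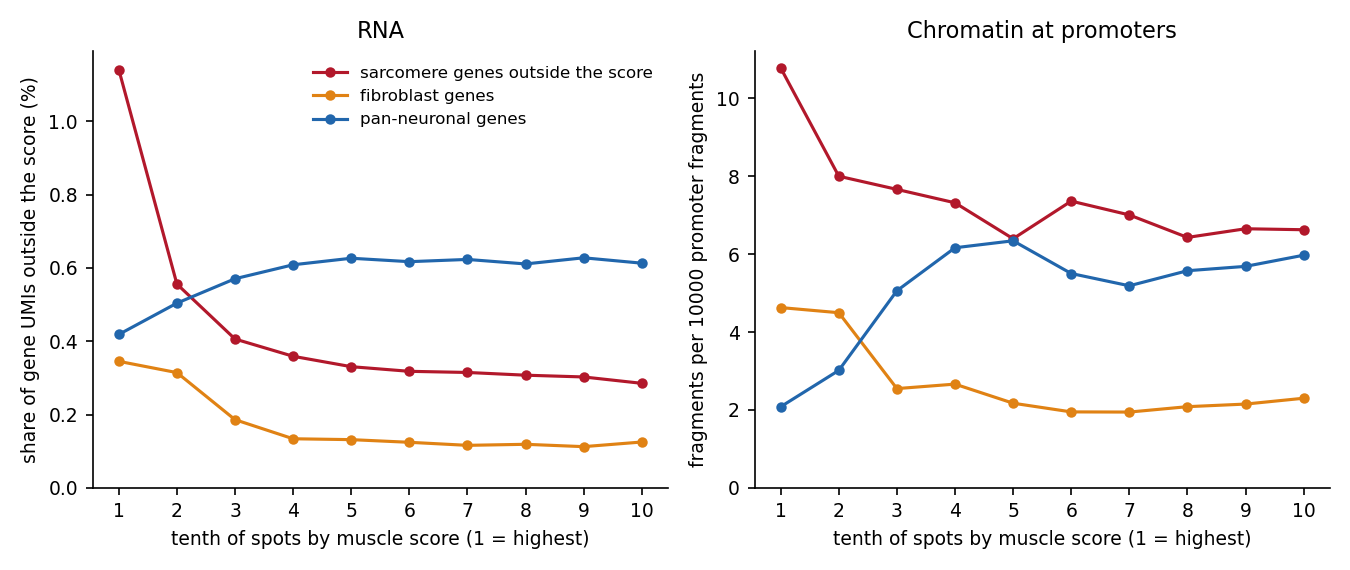
Spots in 10 bins of near-equal size by muscle score (x, bin 1 highest and equal to the muscle-rich group), with the share of gene UMIs outside the score (left, %) and fragments per 10000 promoter fragments (right) for 3 lists. Sarcomere RNA falls from 1.14% to 0.556% over the first 2 bins and changes less below, while fibroblast signal stays high through bin 2 and pan-neuronal signal levels off at bin 4.

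Correlations within the muscle-rich group are limited by its choice, since the score that chose the spots sums muscle genes with Car3 and Cox8b. Over the 200 spots the share of sarcomere RNA had a Spearman correlation of 0.789 with the muscle genes of the score and 0.656 with energy metabolism, but 0.107 with Car3 and Cox8b, -0.147 with adipose genes, -0.0949 with fibroblast genes and -0.179 with pan-neuronal genes. The correlation with sarcomere peak counts was 0.239. Spots share a library and their depth differs, so these are descriptions. Of 7 lists compared, adipose RNA was the most concentrated, with 55.1% of its 227 UMIs in 20 spots and none in 96. Sparse lists are more concentrated by counting alone. Bone and cartilage RNA, with 264 UMIs, had 30.7% in its top 20 spots and none in 74. Sarcomere RNA, with 11274 UMIs, had 21.5% in its top 20 spots. Without Car3 and Cox8b in the score the sarcomere ratio was 3.76.

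Ctcf itself, the mutated gene, had 75 against 373 UMIs and a ratio of 0.869 (0.669 to 1.12), and its promoter was at 1.2 (0.946 to 1.51). A count of RNA does not read the edited codon, so these values say nothing about the genotype.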

How the data were processed

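One RNA and one accessibility library (2 samples, each the only one of its group) of E18.5 brain tissue were used. Per the file headers, the authors ran cellranger-arc 2.0.1 on the mm10 reference, and the submitters' processing notes name Seurat 4.0. The deposited matrix holds raw counts that were not normalised: UMI counts for 32285 genes and counts for 91223 peaks. The peak counts equalled cut sites counted from the deposited fragments in 78.7% of peaks, with totals at 99.9%, and are read as cut-site counts. The fragment file lists 2500 barcodes, of which the 1993 in the matrix were used, with no further filter and no call of doublets, since spots can hold several cells.

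Spots were ranked by score and counts were summed over the 200 highest and over the 996 lowest. RNA was divided by all UMIs outside the 9 score genes, promoter fragments by the group's fragments at all promoters, and peak counts by its counts in all peaks. Starts were the most upstream of the principal transcripts in GENCODE release M21, found for 32235 genes. Features with at least 20 UMIs, 50 fragments or 50 peak counts over both groups were compared at 2-fold. That minimum sums both groups, so some sparse features reached it only through high counts in muscle-rich spots. Counts of higher features include such cases. Intervals are conditional binomial at 95% and cover counting error only, and reads of neighbouring spots may not be independent. Gene symbols and coordinates are those of the files (GRCm38). The summing and the intervals were tested on simulated independent counts, which do not hold pairs of cut sites from 1 fragment. The analysis used Python 3.11.15 with numpy 2.4.6, scipy 1.17.1, pandas 2.3.3 and matplotlib 3.10.9.

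The members and the 32 gene lists were chosen with earlier results of these data known. Genes were named by rule: Ctcf, the score genes, members of the muscle lists, the 4 members with most UMIs of each other list, and the 10 highest and 10 lowest genes, promoters and peaks among those with at least 50 UMIs or 100 counts. Rbfox3 and Snap25 were singled out after their values were seen, as were the printed sequences and the peaks near muscle genes. Alternatives varied the number of members, the comparison spots, the score, depth, strips, minimum, fold, total, promoter window and fragment length. Gene pairs on opposite strands and near-identical copies may share reads, and strand of counting is not given in the sources used here.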

Additional observations from a re-analysis of the deposited data

How the results depend on the processing

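With 1 library per assay no spread between replicates was available, and a list ratio was counted as moved where it left the counting interval of its main value. No paired analysis was possible because each group is 1 set of spots of 1 library. A count was moved where it changed by over 1.5 times. Of the main list ratios and counts under the alternatives, 77 stayed near their main value and the rest moved, 5 of them to the other side of 1. Of the values of single genes and smaller lists, 160 stayed and the rest moved, 11 of them to the other side of 1. All of these crossings came with the settings on strips in the last paragraph. Depth limits single genes most: Myod1 and Myog rest on 14 and 16 UMIs.

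With the 100 highest spots as members, 1060 genes were at least 2-fold lower in RNA, the sarcomere ratio was 4.83 in RNA and 1.79 at promoters, and score gene promoters were at 1.93. With the 400 highest, 260 genes were lower, the sarcomere ratio was 2.83 in RNA and 1.41 at promoters, score gene promoters were at 1.29, and the pan-neuronal ratio was 0.741 in RNA and 0.443 at promoters. Against all other spots, 814 genes were lower, sarcomere RNA was at 3.23 and 454 promoters were higher. Against the 498 lowest spots, 320 genes and 4530 peaks were lower and sarcomere RNA was at 3.83. Without strip 1, sarcomere RNA was at 3.62.

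A minimum of 10 gave 1074 genes lower, 1338 promoters higher and 16493 peaks lower. A minimum of 100 gave 233 genes higher and 82 lower, 377 promoters higher, and 2598 peaks higher and 3503 lower. At 3-fold, 302 genes were higher and 166 lower, 73 promoters were higher, and 2150 peaks were higher and 4338 lower. A promoter window of 500 bp on each side put the pan-neuronal ratio at 0.323, and 2 kb put it at 0.435 and the sarcomere ratio at 1.45. Fragments shorter than the DNA of 1 nucleosome gave 1.94 for score gene promoters and 1.85 for sarcomere promoters.

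The strips moved the values most. In the 1 strip with at least 5 spots of both groups, 6 muscle-rich and 8 muscle-poor spots were left and intervals were wide. There 13 genes were higher and 21 lower, sarcomere RNA was at 1.17 and promoters at 1.05, and pan-neuronal RNA at 1.05 and promoters at 2.18 (0.724 to 6.9). Score gene promoters were at 0.283 (0.00616 to 2.33), and in RNA Mylpf was at 0.865 (0.419 to 1.68), Actc1 at 0.754 (0.0744 to 4.22), Stmn2 at 1.23 and Tubb3 at 1.31, while fibroblast genes were at 2.21 (1.43 to 3.43) and Col1a1 at 2.83 (1.6 to 5.05). Only 5 promoters and 17 peaks reached the minimum, so the 0 promoters and 0 peaks past 2-fold say little. The next alternatives were chosen after seeing the data. Against the other spots of strips 1 to 6, all 200 members had 272 genes higher and 356 lower, sarcomere ratios of 1.72 in RNA and 1.32 at promoters, pan-neuronal ratios of 1.001 in RNA and 0.827 at promoters, 73 promoters higher, and 870 peaks higher and 457 lower. In that comparison fibroblast RNA was at 0.866, Col1a1 at 0.843, Krt18 at 0.451 and Myog at 0.885, which turned their direction. Without those strips, with 14 members left, sarcomere ratios were 1.91 in RNA and 1.35 at promoters, pan-neuronal ratios 0.862 and 0.567, score gene promoters 0.73, Actc1 0.886, Myog 0 and Tubb3 RNA 1.04, while fibroblast RNA was at 3.18 (2.63 to 3.82). The cause of these changes was not tested.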

Other observations

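Some barcodes of the fragment file are absent from the matrix, 20 in strips 1 to 6 and 487 elsewhere. The 20 had 9.83 fragments at sarcomere promoters per 10000 promoter fragments and the other 487 had 8.47, a ratio of 1.16 (95% counting interval 0.923 to 1.45). Pan-neuronal promoters were at 0.736 (0.487 to 1.08) and fibroblast promoters at 1.09 (0.763 to 1.52) in the same comparison, so none of these differences was larger than counting error.

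Imprinted growth genes had 1.17% of UMIs in muscle-rich spots against 0.737%, and their peaks were at 2.17, with 15 of 25 at least 2-fold higher and none at least 2-fold lower. Against the other spots of strips 1 to 6 these peaks were at 1.01 (0.916 to 1.11) and the RNA at 1.28 (1.24 to 1.33). Erythroid genes took 0.808% against 0.647% of UMIs, and mitochondrially encoded genes 0.841% against 0.711%. Their within-strip ratios were 1.38 (1.32 to 1.43) and 1.06 (1.03 to 1.1).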
